A study of Homo sapiens with 647 samples.

Results

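The Sprouty and SPRED genes measured here were SPRY1, SPRY2, SPRY4, SPRED1 and SPRED2, which are 5 of the 54592 genes in the deposited count table. They were chosen by family and by symbol, not by their values. Their levels were followed across T47D cells, an estrogen receptor positive luminal breast cancer line, in 64 groups of a first set of libraries and 48 of a second, each group being 1 line under 1 treatment. RNA was measured by SMART-Seq2, a full-length cDNA method that does not mark the strand. The study asked, per its title and design, how FGFR and FGF alterations change the response of estrogen receptor positive breast cancer cells to therapy.

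Growth factor receptors such as the FGF receptors switch on RAS, which activates RAF, MEK and ERK kinases in turn. Sprouty and SPRED proteins are feedback inhibitors of this cascade: Sproutys are adaptor-like proteins that bind signalling partners near the receptor, and SPREDs bring the RAS inactivator neurofibromin (NF1) to the membrane. In many tissues transcription of SPRY4, SPRY2 and several ERK phosphatases follows ERK activity, so these genes serve as readouts of the pathway.

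The 8 lines were the parental line and cells infected de novo with lentivirus in the pLX307 plasmid that carried GFP (the vector control), FGFR1, wild-type FGFR2 (FGFR2_WT), FGFR2 with a kinase domain mutation (M538I, N550K or K660N) or FGF3, a secreted ligand. All lines but the parental one overexpress their insert, in a single cell line, and the labels do not name a clone. Cells sat for 48 h in 96-well plates and were then treated for 24 h with DMSO (the vehicle), fulvestrant (Fulv, an estrogen receptor degrader, 100 nM), palbociclib (Palbo, a CDK4/6 inhibitor, 1 uM), FIIN-3 (a covalent FGFR inhibitor, 100 nM), trametinib (Tram, a MEK inhibitor, 500 nM), FGF2 (a ligand, dose not given in the sources used here) or combinations. The FGF3 line received no FGF2, and the label of its untreated cells in set 2 reads control. The title numbers ran through in 2 series, which were kept apart: set 1 held the DMSO, FGF2 and fulvestrant groups, and set 2 held FIIN-3 alone in all 8 lines, the FGF3 control, the groups with palbociclib and no fulvestrant and the combinations of fulvestrant and palbociclib with an inhibitor.

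Library totals ran from 512961 to 13012180 counts in set 1 (median 7570052.5) and from 619509 to 4804935 in set 2 (median 2887186). In 16 libraries MT-RNR2, a mitochondrial ribosomal RNA, took under 5% of counts, and these (the MT-RNR2-low libraries) stand apart from the others; 8 of them are DMSO libraries of the GFP, FGFR1, FGFR2_WT, M538I and N550K lines. In 22 libraries the total was under 33.3% of the median of the set, 14 of them in the FGF3 line of set 1, including 4 of its 5 DMSO libraries. Of 8 luminal epithelial markers 7 had reads in every library (KRT8, a keratin, had a median of 10880 CPM), while 7 of 8 markers of blood, endothelium, fibroblast and liver had a median of 0 CPM. The exception was the collagen gene COL1A1 with a median of 22.68 CPM; the summed level of those 8 markers ran from 12.25 to 39.7 CPM over group means. Groups held 4 to 6 libraries, and the labels do not say that these were separate cultures, so a p-value sets a difference against a spread that may be technical only.

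Promoters are shown for the genes whose levels moved most (SPRY4 and SPRED2) and for the SPRY1 entry that holds an ETS motif, since ETS factors are nuclear targets of ERK. The windows are 250 bases before to 50 after a RefSeq transcript start on GRCh38.p14, written 5′ to 3′ on the strand of the gene, with capitals marking the ETS core CGGAAG or its reverse complement. SPRY4 lies at chr5:142324198-142324497 (minus strand), the SPRED2 window at chr2:65432550-65432849 (minus strand) and the SPRY1 window at chr4:123398136-123398435 (plus strand).
SPRY4: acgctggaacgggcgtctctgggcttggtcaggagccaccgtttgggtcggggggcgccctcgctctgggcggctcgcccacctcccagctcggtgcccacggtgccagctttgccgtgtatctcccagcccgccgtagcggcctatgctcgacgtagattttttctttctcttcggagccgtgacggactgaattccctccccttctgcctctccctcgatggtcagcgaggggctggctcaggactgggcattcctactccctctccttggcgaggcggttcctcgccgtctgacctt
SPRED2: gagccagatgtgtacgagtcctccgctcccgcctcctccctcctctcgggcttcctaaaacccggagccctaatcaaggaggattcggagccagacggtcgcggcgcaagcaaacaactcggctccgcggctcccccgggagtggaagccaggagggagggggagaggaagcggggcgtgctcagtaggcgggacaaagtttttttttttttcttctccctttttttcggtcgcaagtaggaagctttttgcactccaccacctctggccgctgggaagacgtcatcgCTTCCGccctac
SPRY1: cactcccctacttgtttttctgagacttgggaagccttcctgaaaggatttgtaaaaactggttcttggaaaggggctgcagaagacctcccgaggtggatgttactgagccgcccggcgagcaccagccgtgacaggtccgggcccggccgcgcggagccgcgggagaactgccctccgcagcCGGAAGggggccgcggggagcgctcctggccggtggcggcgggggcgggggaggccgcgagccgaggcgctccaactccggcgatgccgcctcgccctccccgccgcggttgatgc
Both strands of the 9 RefSeq windows of the 5 genes were searched. The SPRED2 window shown held 1 ETS core, at 38 bases after the start, overlapping 1 Sp1 motif (GGGCGG), and the SPRY1 window held 1 ETS core at -66 and 2 Sp1 motifs. The SPRY4 window held no ETS core and 1 Sp1 motif at -183. The AP-1 motif (TGANTCA) was found in 1 window only, the other SPRED2 start at chr2:65366729-65367028, which held 2. The windows of SPRY2 and SPRED1 held Sp1 motifs alone or none of the motifs, and the cAMP response motif (TGACGTCA) and the E-box (CACGTG) were in none of the 9. Over 35116 promoter windows of this length the ETS core was present in 19.5%, the Sp1 motif in 45%, the AP-1 motif in 7.71%, the E-box in 7.26% and the cAMP response motif in 1.85%, so these matches are a description of the letters and not of binding.

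The members differed widely in level. On the length-adjusted scale of the deposited table, log2(TPM + 1), SPRED2 (2.07 ± 0.194, SD, n = 6) and SPRY1 (1.931 ± 0.233) were the most abundant in parental cells under DMSO. SPRY2 (0.324 ± 0.29), SPRED1 (0.095 ± 0.077) and SPRY4 (0.051 ± 0.126) were near the bottom of the scale there, and the SDs of these 3 overlap. With FGF2 in the FGFR1 line SPRED2 stood at 3.765 ± 0.154, SPRY1 at 2.278 ± 0.327 and SPRY4 at 2.034 ± 0.363 (n = 6), so that SPRY4 and SPRY1 no longer differed beyond their spread. In the FGF3 line under DMSO the level was 4.063 ± 0.373 for SPRED2 and 2.367 ± 0.201 for SPRY4 (n = 5).

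The counts show the same order in depth of evidence. SPRED2 and SPRY1 had a read in 100% of libraries, with set 2 median counts of 35 and 22. SPRY4 had a read in 60.9% of libraries of set 1 and in 36.5% of set 2, and 9 groups of set 1 and 14 of set 2 held no SPRY4 read at all. SPRY2 and SPRED1 had median counts of 6.5 and 4 in set 1 and of 2 and 1 in set 2, which limits what can be tested for them. The filter on low counts let SPRY1 and SPRED2 through in every comparison made, SPRY4 in 59, SPRY2 in 35 and SPRED1 in 25. A gene that passes the filter through its high group alone had to differ, so the counts below are read only against the number of comparisons made.

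**Figure D1:**
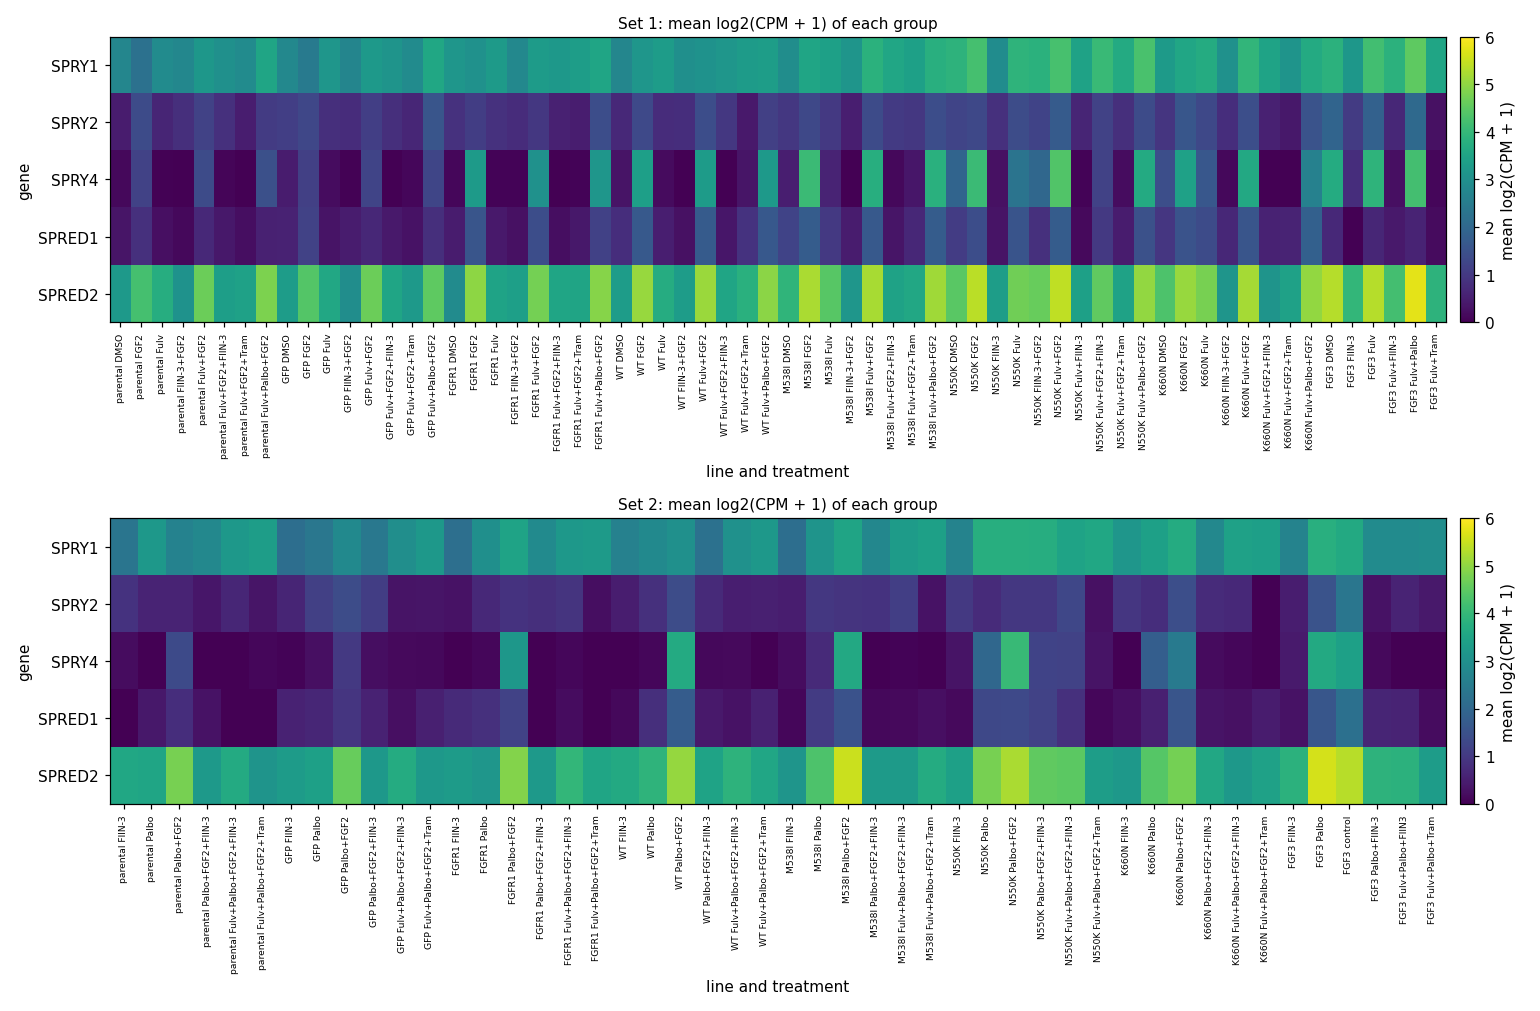
Mean log2(CPM + 1) of the 5 genes (rows) in the 64 groups of set 1 and the 48 groups of set 2 (columns); colour runs from 0 to 6. SPRY4 runs from 0 to 4.37 across the groups of set 1, while SPRED1 reaches at most 1.84 there.

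Across groups of set 1, SPRY4 had its highest mean in N550K cells with Fulv+FGF2 (4.37 on the log2(CPM + 1) scale) and SPRED2 in the FGF3 line with Fulv+Palbo (5.74). SPRED2 had its lowest mean in FGFR1 cells under DMSO (2.89), but that rank rests on 1 MT-RNR2-low library: without it the mean was 3.25, and GFP cells with FIIN-3+FGF2 were lowest (2.95). SPRY1 covered a narrower range, from 2.25 in parental cells with FGF2 to 4.52 in the FGF3 line with Fulv+Palbo. SPRY2 ran from 0.27 in the FGF3 line with Fulv+Tram to 2.06 in the same line with Fulv+Palbo. SPRED1 ran from 0 in the FGF3 line with FIIN-3 to 1.84 in K660N cells with Fulv+Palbo+FGF2.

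Without added ligand, under DMSO, the lines were set against GFP cells. SPRED2 was higher in the N550K, K660N and FGF3 lines, SPRY1 in the N550K line and SPRY4 in the FGF3 line, and no gene of the 5 was lower in any line. These are 5 calls among 18 tests of 35 possible (edgeR quasi-likelihood test, Benjamini-Hochberg adjusted p under 0.05), where 0.725% of all gene tests in these comparisons were called higher. SPRED2 was tested in all 7 comparisons and called in 3, a share above that over all genes. SPRY4 passed the filter in the FGF3 comparison alone, through its high level there, so its call is not read as a share. Per line, 0.954% of genes were higher in N550K cells, 0.923% in K660N cells and 3.24% in the FGF3 line. All 7 comparisons use the same 6 GFP DMSO libraries. In a bulk sample a change in the RNA per cell and a change in the number of cells that express a gene cannot be told apart, here and in every comparison that follows.

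SPRY4, a Sprouty whose transcription often follows ERK activity, was all but silent in the control lines under DMSO. In parental cells 5 of 6 libraries had no SPRY4 read and the other stood at 0.723 CPM, and GFP cells ran from 0 through a median of 0.407 to 1.03 CPM. FGFR1 cells had 0.213, 0, 0, 0 and 0.234 CPM, and FGFR2_WT cells ran from 0 through 0.143 to 0.892 CPM. These 4 lines overlap fully.
The mutant lines were spread more widely. M538I cells had 2.45, 0.319, 0, 0.255 and 0 CPM, N550K cells ran from 0.583 through 2.9 to 6.89 CPM, and K660N cells from 0.25 through 1.83 to 5.06 CPM. Each of these groups overlaps the GFP range at its low end. The gene did not reach the filter in these 3 comparisons; pooled over libraries, SPRY4 stood at 3.54 CPM in N550K and 2.09 CPM in K660N cells against 0.386 in GFP cells (19 reads), which is 9.17- and 5.42-fold, with no test. The 2 N550K libraries that stand apart held 0.583 and 1.35 CPM, the lowest levels of that group.

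In the FGF3 line SPRY4 was at 13.3, 11.9, 9.12, 12.7 and 13.6 CPM under DMSO, above every GFP library. The log2 fold change was 4.56 ± 0.643 (SE; adjusted p = 0.000542, edgeR, n = 5 against 6), or 32.1-fold on pooled reads. Leaving out the libraries that stand apart gave 5.13 (adjusted p = 1.51e-06). Without the 4 shallow libraries the estimate was 4.51 (adjusted p = 0.423), from 1 FGF3 library, which is then assumed to vary like the GFP group.

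SPRED2, which together with NF1 lowers active RAS, was expressed in every line under DMSO. It ran from 6.33 through 8.31 to 10.5 CPM in parental cells, from 4.97 through 9.72 to 11.3 in GFP cells and from 5.7 through 8.85 to 14.8 in FGFR2_WT cells. FGFR1 cells had 9.7, 8.54, 1.73, 6.99 and 9.13 CPM, where the lowest library is one that stands apart. These 4 lines did not separate.
N550K cells ran from 11.9 through 25.5 to 31.8 CPM, all above GFP, and the 2 lowest (11.9 and 12.7) were the 2 libraries that stand apart. K660N cells ran from 16.3 through 17.9 to 26.2 CPM and the FGF3 line had 43.1, 45.8, 25.5, 36.9 and 51 CPM, also above every GFP library. M538I cells had 21.2, 20.4, 6.95, 9.04 and 21 CPM, of which the 2 low values belong to libraries that stand apart.
Against GFP, SPRED2 was higher by 1.23 ± 0.174 in N550K cells (log2, SE; adjusted p = 0.00215, edgeR), by 0.87 ± 0.182 in K660N cells (adjusted p = 0.02) and by 1.9 ± 0.221 in the FGF3 line (adjusted p = 9.7e-05, 4.41-fold on pooled reads). The difference in M538I cells, 0.74 ± 0.228, did not pass (adjusted p = 0.367). Leaving out the libraries set apart by MT-RNR2, the differences were 1.31 in N550K (adjusted p = 6.97e-05), 0.84 in K660N (adjusted p = 0.0103) and 1.91 in FGF3 cells (adjusted p = 3.95e-06). In that setting the mean log2(CPM + 1) was 4.45 in M538I (n = 3) and 3.45 in GFP cells (n = 5). With all libraries these means were 3.94 and 3.31. The M538I call thus depends on the libraries that stand apart, and no test without them is given here. Without the shallow libraries the FGF3 estimate was 1.69 (adjusted p = 0.2), again from 1 FGF3 library. The limma test on log2 TPM did not call SPRED2 in N550K (adjusted p = 0.329) or K660N cells (adjusted p = 0.0575).

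SPRY1, an inhibitor of receptor tyrosine kinase signalling known from kidney and vessel development, ran from 4.17 through 6.48 to 7.44 CPM in GFP cells and from 11.8 through 13.6 to 16 CPM in N550K cells. All N550K libraries were above all GFP libraries. The difference was 1.22 ± 0.273 (log2, SE; adjusted p = 0.0375, edgeR, n = 6 against 6), or 2.18-fold on pooled reads, and 0.95 (adjusted p = 0.00865) once the libraries set apart by MT-RNR2 were left out. The call was lost without the filter on low counts (1.19, adjusted p = 0.0594) and with limma on log2 TPM (0.95, adjusted p = 0.11). In the FGF3 line SPRY1 stood at 6.63, 20.5, 15.5, 18.1 and 11.5 CPM, which overlaps GFP, and the difference of 1.01 did not pass (adjusted p = 0.0523).

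FGF2 was then compared with DMSO in the 7 lines that received it. SPRY4 rose in the FGFR1, FGFR2_WT, M538I and K660N lines and SPRED2 in every line but N550K, while SPRED1 rose in FGFR1 cells and neither SPRY1 nor SPRY2 was called. These are 11 higher and 0 lower calls in 27 tests of 35 possible. Over all genes tested, 3.71% were called higher and 5.03% lower. SPRED2, which passed the filter in all 7 lines, was called higher in 6 of them, a share above that of all genes. SPRY4 was tested in 5 lines and called in 4. Where it passed the filter through its FGF2 group alone it had to differ, so its calls are not read as a share. In one fit over all groups of a line and set, 2 member tests were lower and 13 higher.

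**Figure D2:**
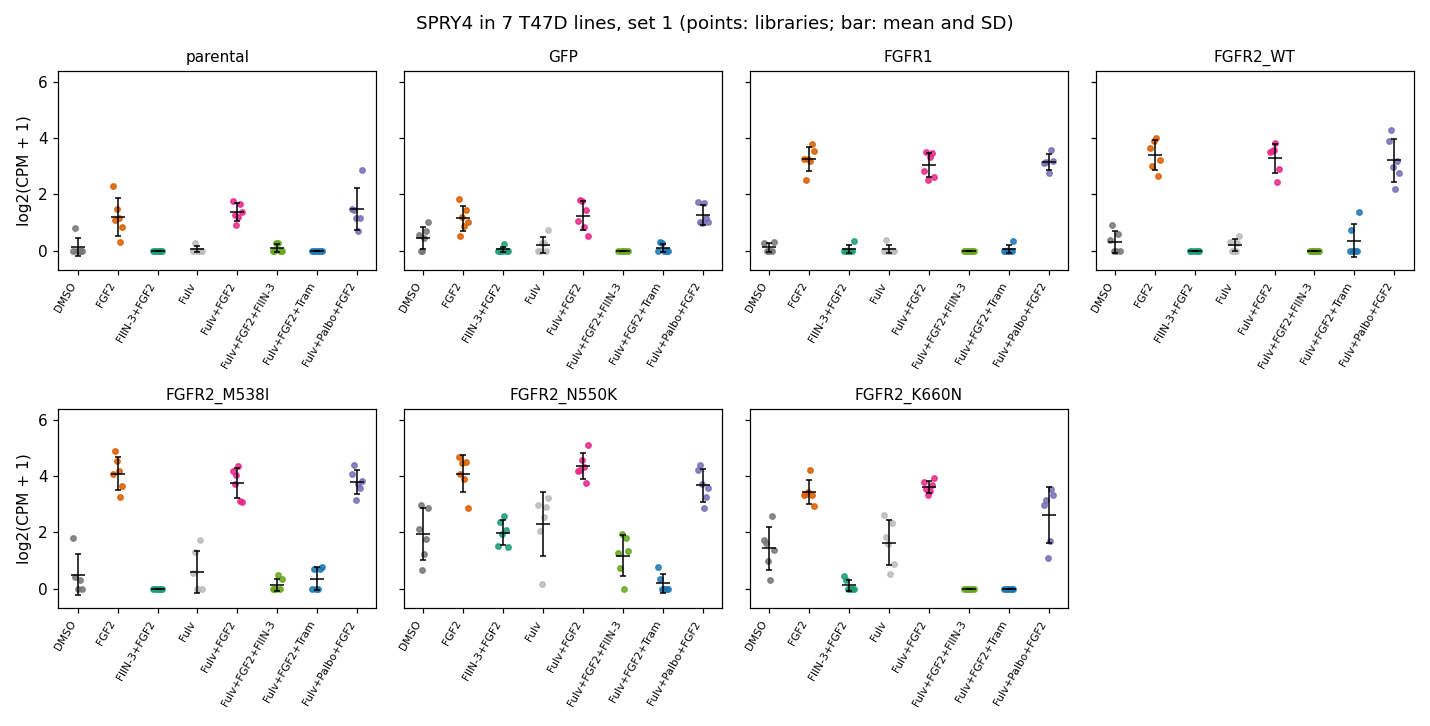
SPRY4 as log2(CPM + 1) (vertical axis) in the 7 lines that received FGF2 (panels) under 8 treatments of set 1; points are libraries, the bar is the mean and SD. Under FIIN-3+FGF2 all libraries of the parental, FGFR2_WT and M538I lines lie at 0, while N550K libraries lie between 1.79 and 4.94 CPM.

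With FGF2, SPRY4 ran from 4.74 through 8.57 to 12.7 CPM in FGFR1 cells, from 5.26 through 9.92 to 14.8 in FGFR2_WT cells and from 8.49 through 16.4 to 28.6 in M538I cells. In each of these 3 lines every FGF2 library was above every DMSO library. The log2 fold changes were 6.18 ± 0.548 in FGFR1 cells (adjusted p = 1.39e-05, edgeR), 4.95 ± 0.566 in FGFR2_WT cells (adjusted p = 5.29e-05) and 4.64 ± 0.674 in M538I cells (adjusted p = 0.00204), which on pooled reads is 98.7-, 40.6- and 26.1-fold.
K660N cells ran from 6.77 through 9.22 to 17.6 CPM with FGF2, also clear of DMSO (2.27 ± 0.406, adjusted p = 0.0116, 4.71-fold on pooled reads). N550K cells ran from 6.36 through 18.6 to 25 CPM and overlapped their DMSO libraries at 1 end; their difference of 2.2 ± 0.407 missed the threshold (adjusted p = 0.0562, 4.89-fold) and passed when those set apart by MT-RNR2 were left out (1.88, adjusted p = 0.029). Over the alternatives tried the N550K estimate ran from 1.75 to 2.26 with adjusted p from 6.35e-05 to 0.0898.
The control lines reached lower levels with FGF2: parental cells ran from 0.234 through 1.16 to 3.92 CPM and GFP cells from 0.448 through 1.14 to 2.52 CPM. They did not reach the filter; pooled CPM was 16.5-fold that under DMSO in parental cells (67 against 4 reads) and 3.31-fold in GFP cells (65 against 19 reads), without a test.

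The difference between a receptor line's FGF2 response and that of GFP cells was tested as an interaction. It was called for SPRY4 in FGFR1 cells (4.75 ± 1.028 on the log2 scale, adjusted p = 0.0191, edgeR; 4.09 and adjusted p = 0.0174 with the MT-RNR2-low libraries left out). It was not called for SPRY4 in FGFR2_WT (3.55 ± 0.99, adjusted p = 0.123), M538I (3.19 ± 1.059, adjusted p = 0.313), N550K (0.74, adjusted p = 0.949) or K660N cells (0.81, adjusted p = 0.89), nor for SPRED2 in FGFR1 cells (0.95 ± 0.269, adjusted p = 0.0775). In all, 1 of 25 member tests was called higher and 0 lower, against 0.121% and 0.192% of all gene tests. The count of higher calls was 2 with the MT-RNR2-low libraries left out and with the replicate block, 3 without the filter, with a term for ranges of title numbers, with DESeq2 and with limma, and 4 in one fit over the line and set. The 5 interactions share the GFP libraries.

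SPRED2 with FGF2 ran from 12.8 through 18.9 to 20.5 CPM in parental cells, from 17.1 through 20.6 to 24.6 in GFP cells and from 25.5 through 31.2 to 34.7 in FGFR1 cells. It ran from 27.2 through 32.5 to 41.4 CPM in FGFR2_WT cells, from 33.1 through 35.8 to 45.8 in M538I cells, from 31.7 through 38.2 to 55.6 in N550K cells and from 27.3 through 32.5 to 38.1 in K660N cells. In 6 of the 7 lines all FGF2 libraries were above all DMSO libraries, N550K being the exception.
SPRED2 rose by 1.89 ± 0.235 in FGFR1 cells (log2, SE; adjusted p = 0.000165, edgeR, 4.16-fold on pooled reads) and by 1.55 ± 0.214 in FGFR2_WT cells (adjusted p = 0.000276). The rise was 1.09 ± 0.227 in M538I (adjusted p = 0.0163), 0.99 ± 0.182 in parental (adjusted p = 0.00509), 0.96 ± 0.155 in GFP (adjusted p = 0.0151) and 0.72 ± 0.157 in K660N cells (adjusted p = 0.0468). N550K cells, which started higher, gave 0.75 ± 0.191 (adjusted p = 0.178). Calls in GFP, M538I and K660N cells were each lost under at least 1 alternative (GFP 0.93, adjusted p = 0.0861 with a term for ranges of title numbers; M538I 1.37, adjusted p = 0.0545 with limma; K660N 0.72, adjusted p = 0.0698 in one fit over the line).

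**Figure D3:**
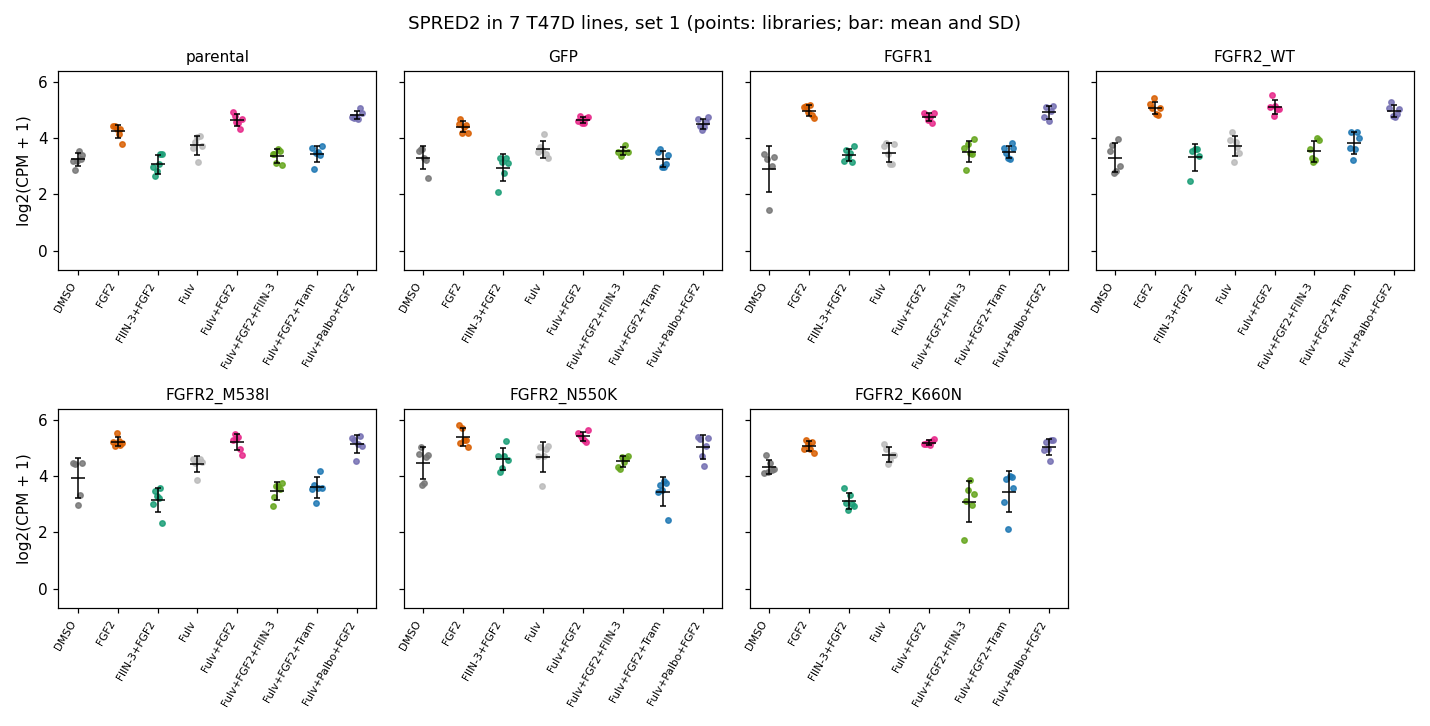
SPRED2 as log2(CPM + 1) (vertical axis) in 7 lines (panels) under 8 treatments of set 1; points are libraries, the bar is the mean and SD. FGF2 libraries lie above DMSO libraries in 6 lines, and FIIN-3+FGF2 libraries lie below FGF2 libraries in 6 lines; N550K overlaps in both.

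SPRED1, the family member lost in Legius syndrome, was at 1.07, 0.255, 0.266, 0.189 and 0.234 CPM in FGFR1 cells under DMSO and ran from 0.612 through 2.46 to 3.36 CPM with FGF2. The groups overlap through 1 library on each side. The difference of 2.11 ± 0.535 passed (adjusted p = 0.0107, edgeR; 100 against 18 reads, 5.19-fold). SPRY1 did not pass in any line; its estimates were -0.67 ± 0.235 in parental cells (adjusted p = 0.123), -0.61 in GFP, -0.51 in FGFR1, 0.18 in FGFR2_WT, 0.41 in M538I, 0.09 in N550K and 0.24 in K660N cells. SPRY2, a Sprouty that also binds the ubiquitin ligase CBL, was tested in 4 lines with estimates between -0.25 and 1 and no call.

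Fulvestrant alone was compared with DMSO in all 8 lines. No member was called in 24 tests of 40 possible by edgeR or by DESeq2, and 3 tests had an unadjusted p under 0.05; over all genes 0.0294% of tests were higher and 0.164% lower. SPRED2 estimates ran from -0.03 in the FGF3 line to 0.54 ± 0.191 in parental cells (adjusted p = 0.157). SPRY4 was tested in N550K (0.36 ± 0.57), K660N (0.24 ± 0.537) and FGF3 cells (0.22 ± 0.286).

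With fulvestrant present, FGF2 again raised SPRY4 and SPRED2. SPRY4 was higher in FGFR1, FGFR2_WT, M538I and K660N cells and SPRED2 in parental, GFP, FGFR1, FGFR2_WT and M538I cells, which makes 9 higher and 0 lower calls in 26 tests of 35 possible, against 4.5% higher and 4.16% lower over all genes. In FGFR1 cells SPRY4 went from 2 reads with fulvestrant to a pooled 7.2 CPM with Fulv+FGF2, a ratio of pooled CPM of 173.9 (95% counting interval 47.7 to 1442; edgeR adjusted p = 1.52e-07). This interval and those below treat reads as independent. As 86.9% of nonzero member counts up to 20 were even, they are too narrow. The rise was 5.63 ± 0.506 on the log2 scale in FGFR2_WT (adjusted p = 1.19e-05), 4.14 ± 0.586 in M538I (adjusted p = 0.000161) and 2.15 ± 0.349 in K660N cells (adjusted p = 0.00207).
N550K cells under fulvestrant had SPRY4 at 6.95, 3.11, 0.115, 4.8, 6.47 and 8.39 CPM, where the lowest library is one that stands apart. With Fulv+FGF2 they ran from 12.7 to 33.7 CPM, above all of those, and the difference of 2.03 ± 0.426 did not pass (adjusted p = 0.0622). In parental cells 2 SPRY4 reads became 69, a ratio of 45.3 (95% counting interval 12.1 to 381.8) with no test. SPRED2 rose by 0.86 ± 0.178 in parental, 0.97 ± 0.165 in GFP, 1.23 ± 0.174 in FGFR1, 1.28 ± 0.174 in FGFR2_WT and 0.81 ± 0.183 in M538I cells (adjusted p from 6.82e-05 to 0.00883, edgeR). It gave 0.63 ± 0.149 in N550K (adjusted p = 0.1) and 0.38 ± 0.126 in K660N cells (adjusted p = 0.126).

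Adding FIIN-3 to FGF2 lowered SPRED2 in all 7 lines and SPRY4 in each of the 5 receptor lines, where alone it could be tested. SPRY2 fell in K660N cells and SPRED1 in FGFR2_WT cells, and SPRY1 was not called. These are 14 lower and 0 higher calls in 25 tests of 35 possible, where 10.5% of all gene tests were lower and 10.2% higher. The FGF2 libraries are also the treated groups of the comparison with DMSO above, so both sets of values are not independent.

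SPRY4 had no read in any library of the parental, FGFR2_WT and M538I lines under FIIN-3+FGF2. GFP and FGFR1 cells held 2 reads each, at most 0.187 and 0.264 CPM in 1 library, and K660N cells 4 reads, with 4 libraries at 0. N550K cells held SPRY4 at 1.79 to 4.94 CPM (median 3.07) in 6 of 6 libraries, below all of their FGF2 libraries.
Pooled SPRY4 CPM fell at least 123.98-fold in FGFR2_WT cells (470 against 0 reads, floor of 3 counts over the group; edgeR adjusted p = 2.49e-06) and at least 184.25-fold in M538I cells (617 against 0; adjusted p = 9.92e-08). The ratio was 225.98 in FGFR1 cells (422 against 2 reads, 95% counting interval 62.2 to 1872; adjusted p = 8.71e-08) and 101.01 in K660N cells (432 against 4 reads; log2 -6.38 ± 0.511, adjusted p = 5.55e-08). In N550K cells it was 5.44 (pooled 17.3 against 3.18 CPM; -2.45 ± 0.314, adjusted p = 0.000135). Parental cells went from 67 reads to 0, at least 23.8-fold lower, and GFP cells from 65 to 2, a ratio of 33.5 (95% counting interval 8.92 to 282.7), neither tested.

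That FIIN-3 lowered SPRY4 less in N550K than in FGFR2_WT cells was tested as an interaction, which was called (6.78 ± 1.005 on the log2 scale, adjusted p = 0.00076, edgeR). The size of this estimate depends on the prior count, because the FGFR2_WT group under FIIN-3+FGF2 is at 0 reads. The same interaction was 0.9 ± 0.29 for SPRED2 (adjusted p = 0.226) and 2.06 for SPRED1 (adjusted p = 0.527). Of the 5 members tested 1 was higher and 0 lower, against 0.461% and 0.179% of all genes.

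SPRED2 under FIIN-3+FGF2 ran from 5.23 through 7.15 to 9.85 CPM in parental cells, from 3.2 through 7.8 to 8.86 in GFP cells and from 7.96 through 9.44 to 12.2 in FGFR1 cells. It ran from 4.11 through 8.55 to 11.1 CPM in M538I and from 6.04 through 7.13 to 10.9 in K660N cells, and FGFR2_WT cells had 4.57, 10.5, 11.3, 11.2 and 9.32 CPM. All of these lie below the FGF2 libraries of their line.
N550K cells ran from 16.8 through 23.9 to 37.4 CPM and overlapped their FGF2 libraries. SPRED2 fell by 0.8 ± 0.196 there on the log2 scale (adjusted p = 0.018, edgeR), a call lost with a term for ranges of title numbers (-0.63, adjusted p = 0.0905). In the other 6 lines the change ran from -1.16 ± 0.193 in parental (adjusted p = 0.000863) to -2.1 ± 0.223 in M538I cells (adjusted p = 1.08e-06, 4.32-fold on pooled reads).

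SPRY2 in K660N cells went from 0.75, 2.33, 1.74, 4.48, 1.7 and 2.26 CPM with FGF2 to 0.365, 0.677, 0.302, 0.997, 0.531 and 1.84 CPM with FIIN-3 added. The groups overlap, and the change of -1.35 ± 0.475 (adjusted p = 0.036, edgeR) did not pass without the filter (adjusted p = 0.0719), with a term for ranges of title numbers (adjusted p = 0.0753) or in one fit over the line (adjusted p = 0.0902). SPRED1 in FGFR2_WT cells went from 2.54, 1.74, 2.15, 3.75, 0.751 and 3.08 CPM to 0, 0, 0.344, 0.2 and 0.583 CPM. These groups do not overlap, and the change was -3.21 ± 0.618 (adjusted p = 0.00132; pooled 2.42 against 0.22 CPM, 11-fold). SPRY1 stayed without a call, with 0.73 in parental cells (adjusted p = 0.0838) and -0.4 in N550K cells.

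With fulvestrant and FGF2 as the background, FIIN-3 gave 12 lower and 0 higher calls in 22 tests of 35 possible (12.4% and 11.5% of all gene tests). All of them were SPRY4 in the 5 receptor lines and SPRED2 in all 7 lines. In the control lines SPRY4 was not tested, and its reads went from 69 to 4 in parental and from 70 to 0 in GFP cells. SPRY4 in N550K cells had 1.42, 0.65, 2.84, 0, 2.48 and 1.54 CPM, all below Fulv+FGF2 (-3.61 ± 0.356, adjusted p = 2.3e-07, edgeR, 13.5-fold on pooled reads). Pooled SPRY4 CPM fell at least 94-fold in FGFR1, at least 125.7-fold in FGFR2_WT and at least 117.5-fold in K660N cells, each with 0 reads under FIIN-3, and 140-fold in M538I cells. SPRED2 changes ran from -0.84 ± 0.159 in N550K (adjusted p = 0.000833) to -1.88 ± 0.212 in K660N cells (adjusted p = 1.14e-05).

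Trametinib, which acts on MEK below the receptor, gave 13 lower and 0 higher calls in 21 tests of 35 possible in the same background (4.89% and 4.19% of all gene tests). SPRY4 fell in all 5 receptor lines, SPRED2 in all 7 lines and SPRED1 in FGFR2_WT cells. In the control lines SPRY4 was not tested, and its reads went from 69 to 0 in parental and from 70 to 4 in GFP cells. In N550K cells SPRY4 was at 0.728, 0.272, 0, 0, 0 and 0 CPM with Fulv+FGF2+Tram, far below the 12.7 to 33.7 CPM without Tram (-6.55 ± 0.478, adjusted p = 8.26e-09, edgeR; 854 against 8 reads, 107.35-fold). The ratio of pooled SPRY4 CPM was 186.45 in FGFR1 cells (95% counting interval 51.2 to 1546), 26.4 in FGFR2_WT and 39.6 in M538I cells, and at least 148.8 in K660N cells.
SPRED2 changes with Tram ran from -1.25 ± 0.173 in parental (adjusted p = 0.000119) to -1.97 ± 0.199 in N550K cells (adjusted p = 9.48e-07). SPRED1 in FGFR2_WT cells went from 1.21 to 3.07 CPM down to 0.405 to 1.41 CPM, with 1 library overlapping (-1.51 ± 0.373, adjusted p = 0.0131); this call was lost with a term for ranges of title numbers (adjusted p = 0.0555) and in one fit over the line (adjusted p = 0.155).

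Trametinib and FIIN-3 are compounds with different targets, and they were compared at their 2 stated doses in the same background. Of 14 member tests among 35 possible, 1 was lower with Tram and 0 higher (11.5% and 12% of all gene tests). Read against the 35 possible tests, neither share is above that of all genes, so these counts are not a result about the members. The call was SPRED2 in N550K cells, which had 18 to 25.4 CPM with FIIN-3 and 4.47 to 13.4 CPM with Tram (-1.1 ± 0.222, adjusted p = 0.00158, edgeR, 2.03-fold on pooled reads) with no overlap. SPRED2 in the other 6 lines gave estimates from -0.36 to 0.32 with no call. SPRY4 in N550K cells was not tested; it had 8 reads with Tram and 49 with FIIN-3, a 7.97-fold lower pooled level.

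Adding palbociclib to Fulv+FGF2 gave no member call by edgeR or by DESeq2 in 33 tests of 35 possible, 5 with an unadjusted p under 0.05 (7.1% of all gene tests lower, 3.03% higher). SPRY4 estimates ran from -0.66 ± 0.349 in K660N (adjusted p = 0.281) to 0.44 ± 0.488 in parental cells, and SPRED2 estimates from -0.21 ± 0.17 in N550K to 0.27 ± 0.141 in FGFR1 cells.

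The N550K line also received FIIN-3 without ligand, in set 1. There FIIN-3 lowered SPRED2 and SPRY1, and FGF2 given together with FIIN-3 raised SPRY4, SPRED2 and SPRY1 again, which is 5 higher and 3 lower calls in 9 tests of 20 possible (13% and 14.5% of all gene tests). Read against the 20 possible tests, the share of lower calls is near that of all genes and is not a result about the members. In the same 4 contrasts COL1A1, the only one of the 8 markers of other cell types that could be tested, was higher in the 2 with FIIN-3 added and lower in the 2 with FGF2 added (-0.79 to 0.68 on the log2 scale). Over the 8 luminal markers 10 of 30 tests were higher and 9 lower (13% and 14.5% of all gene tests). FOXA1 (-0.98 to 1.31), EPCAM (-0.95 to 0.94) and KRT19 (-0.66 to 1.02) were called in all 4 contrasts, each 2 higher and 2 lower. The part of these markers and of COL1A1 in the result was not tested. SPRY1 ran from 3.9 through 6.01 to 11.7 CPM with FIIN-3 against 11.8 to 16 CPM under DMSO, without overlap (-1.14 ± 0.293, adjusted p = 0.0126, edgeR). With FIIN-3+FGF2 it ran from 9.79 through 13.2 to 17.6 CPM (0.8 ± 0.239 above FIIN-3, adjusted p = 0.0214), with overlap. A term for ranges of title numbers ended both calls (-0.63, adjusted p = 0.138, and 0.6, adjusted p = 0.307).

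**Figure D4:**
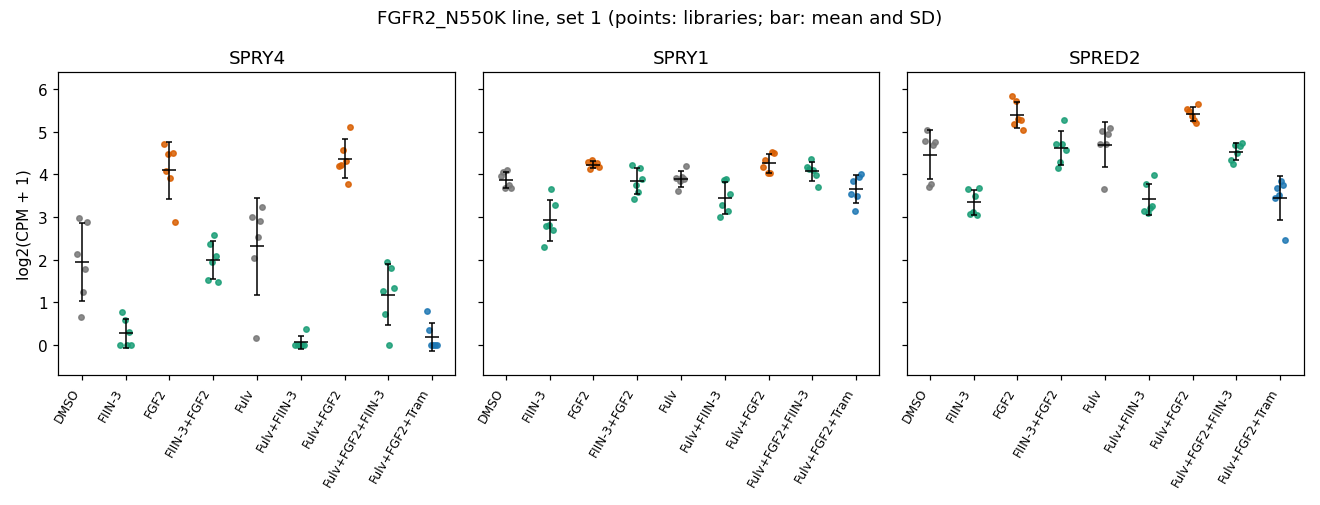
SPRY4, SPRY1 and SPRED2 as log2(CPM + 1) (vertical axis) in the N550K line under 9 treatments of set 1; points are libraries, the bar is the mean and SD. SPRY4 lies between 0 and 0.7 CPM with FIIN-3 alone and between 1.79 and 4.94 CPM with FIIN-3+FGF2.

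SPRY4 in N550K cells ran from 0 through 0.121 to 0.7 CPM with FIIN-3 alone. This is 8 reads, a pooled 0.234 CPM against 3.54 under DMSO (15.1-fold lower, not tested). With FIIN-3+FGF2 all 6 libraries were above all FIIN-3 libraries (3.57 ± 0.595, adjusted p = 0.000241, edgeR, 13.6-fold). With fulvestrant the same order was seen: 240 SPRY4 reads under Fulv, 2 under Fulv+FIIN-3 (ratio 91.3, 95% counting interval 25 to 758.6) and 49 under Fulv+FGF2+FIIN-3 (ratio to Fulv+FIIN-3 of 28.9, 95% counting interval 7.59 to 245.5), without a test.
SPRED2 ran from 7.28 through 8.93 to 11.7 CPM with FIIN-3, below every DMSO library (-1.4 ± 0.198, adjusted p = 0.000361, edgeR; -1.56, adjusted p = 5.3e-07 with the MT-RNR2-low libraries left out). It was 1.36 ± 0.212 higher with FIIN-3+FGF2 than with FIIN-3 (adjusted p = 0.000132) and 1.14 ± 0.2 higher with Fulv+FGF2+FIIN-3 than with Fulv+FIIN-3 (adjusted p = 8.73e-05), without overlap in either. Under fulvestrant FIIN-3 changed SPRED2 by -1.37 ± 0.208 (adjusted p = 0.000205), and SPRY1 was 0.64 ± 0.21 higher with FGF2 on top (adjusted p = 0.0198; adjusted p = 0.0511 with a term for ranges of title numbers).

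The FGF3 line carried the ligand itself. In set 1 FIIN-3 and Tram lowered SPRY4 and SPRED2 in every tested contrast against the same background without them, and Tram also lowered SPRY2, giving 7 lower and 0 higher calls in 16 tests of 25 possible (6.38% and 4.64% of all gene tests). SPRY4 went from 9.12 to 13.6 CPM under DMSO to 0 through 0.728 to 1.88 CPM with FIIN-3 (-4.05 ± 0.53, adjusted p = 2.84e-05, edgeR, 20.8-fold). Under fulvestrant it stood at 15.3, 10.4, 12.3 and 18.8 CPM, with FIIN-3 added at 0 in 5 libraries and 1.79 in the other, and with Tram added at 0.197 and 0.284 CPM in 2 libraries and 0 in the rest. The changes were -5.56 ± 0.653 with FIIN-3 (adjusted p = 2.02e-06, 61.4-fold) and -6.89 ± 0.516 with Tram (adjusted p = 3.61e-08, 152.3-fold).

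SPRED2 in the FGF3 line ran from 11.8 through 14 to 23.5 CPM with FIIN-3, below the 25.5 to 51 CPM of DMSO (-1.33 ± 0.227, adjusted p = 0.000449, edgeR, 2.99-fold). Without the shallow libraries this was -1.3 with adjusted p = 0.0777, and SPRY4 kept its call (-4.46, adjusted p = 0.0359), each from 1 DMSO library. Under fulvestrant SPRED2 had 47.6, 29.5, 39.5 and 43.5 CPM, 14.9 through 17.6 to 19 with FIIN-3 (-1.07 ± 0.192, adjusted p = 0.000399) and 9.64 through 12.9 to 20.8 with Tram (-1.42 ± 0.231, adjusted p = 0.000386).
SPRY2 had 1.76, 2.6, 2.78 and 3.52 CPM under fulvestrant and 0, 0.403, 0.394, 0.196, 0.304 and 0 CPM with Tram added (-3.34 ± 0.617, adjusted p = 0.00131; 42 against 10 reads, 11.6-fold on pooled CPM), with no overlap. Palbociclib on top of fulvestrant moved neither SPRY4 (0.43 ± 0.254, adjusted p = 0.382) nor SPRED2 (0.51 ± 0.191, adjusted p = 0.126) past the threshold.

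**Figure D5:**
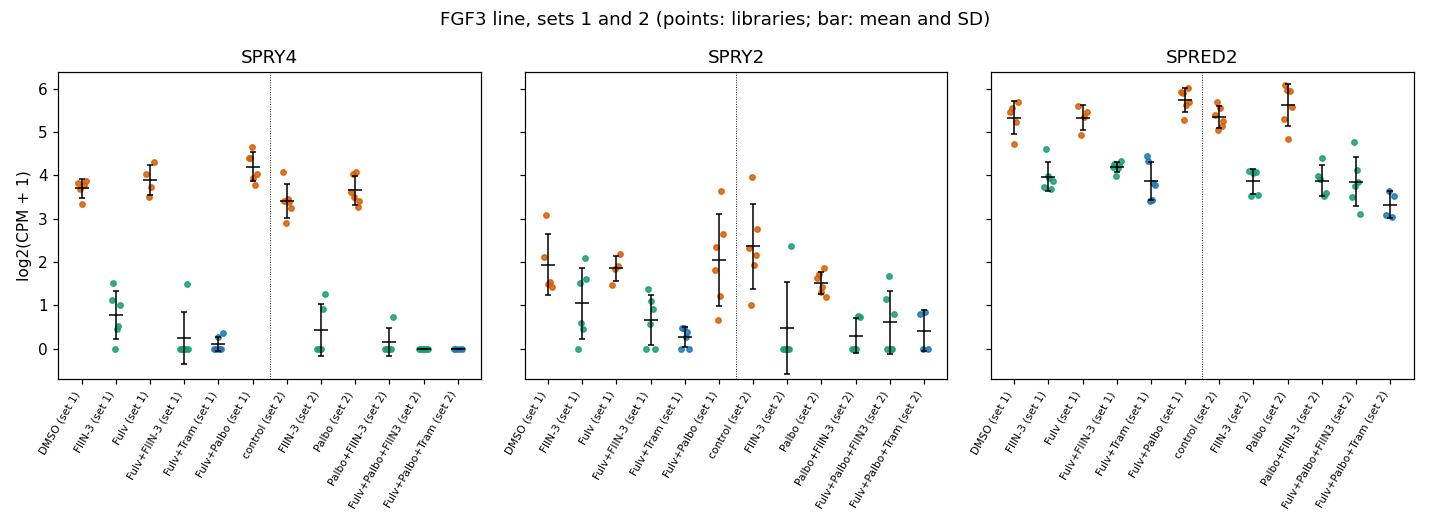
SPRY4, SPRY2 and SPRED2 as log2(CPM + 1) (vertical axis) in the FGF3 line in 12 groups of both sets; points are libraries, the bar is the mean and SD. SPRY4 lies between 6.46 and 15.9 CPM in the control group of set 2 and at 0 in all libraries with Fulv+Palbo+FIIN3 and with Fulv+Palbo+Tram.

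Set 2 repeated the FIIN-3 comparison in the FGF3 line with other libraries and added palbociclib. SPRY4 was at 15.9, 9.57, 6.46, 9.95, 9.51 and 8.51 CPM in the control group and at 0, 0, 0, 0.883 and 1.38 CPM with FIIN-3 (-4.1 ± 0.595, adjusted p = 0.000521, edgeR, 20.2-fold). SPRED2 ran from 32.3 to 50.6 CPM in controls and was at 16.2, 10.6, 15.6, 15.9 and 10.7 CPM with FIIN-3 (-1.45 ± 0.211, adjusted p = 0.000535). Neither pair of groups overlaps, and the estimates of set 2 lie within 1 SE of those of set 1 for both genes.
Under palbociclib SPRY4 went from a pooled 11.5 CPM to 2 reads with FIIN-3 (ratio 80.8, 95% counting interval 22.1 to 672; adjusted p = 4.7e-07), and SPRED2 changed by -1.7 ± 0.215 (adjusted p = 1.36e-05). Palbociclib alone against control gave 0.29 ± 0.259 for SPRY4 (adjusted p = 0.586) and 0.38 ± 0.204 for SPRED2 (adjusted p = 0.326). In all, 4 of 11 tests were lower and 0 higher among 20 possible (4.44% and 2.97% of all gene tests). All 6 libraries with Fulv+Palbo+FIIN3 and all 4 with Fulv+Palbo+Tram held no SPRY4 read.

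In the receptor lines of set 2, FGF2 was added to palbociclib. SPRY4 rose in FGFR1, FGFR2_WT, M538I and N550K cells and SPRED2 in GFP, FGFR1, FGFR2_WT and M538I cells, which is 8 higher and 0 lower calls in 19 tests of 35 possible (5.63% and 5.08% of all gene tests). SPRY4 was at 0 in 5 of 6 FGFR1 libraries with palbociclib and at 5.81 to 11.8 CPM with FGF2 (5.8 ± 0.587, adjusted p = 9.28e-08, edgeR). It was at 0 in 5 of 6 FGFR2_WT libraries and at 8.96 to 14.9 CPM with FGF2 (6.22 ± 0.524, adjusted p = 2.24e-10).
M538I cells went from 0 to 1.93 CPM up to 8.71, 19.4, 11.1, 12.3 and 8 CPM (4.18 ± 0.476, adjusted p = 5.82e-06), and N550K cells from 1.42 to 4.26 CPM up to 12.8, 17.1, 20.3, 14.5 and 13.4 CPM (2.3 ± 0.298, adjusted p = 5.08e-06). K660N cells went from 0 to 5.05 CPM to 3.07 to 9.26 CPM, with overlap and no call (0.75 ± 0.467, adjusted p = 0.576). SPRED2 rose by 1.21 ± 0.218 in GFP, 1.85 ± 0.235 in FGFR1, 1.21 ± 0.199 in FGFR2_WT and 1.28 ± 0.181 in M538I cells, and gave 0.55 ± 0.184 in N550K (adjusted p = 0.0577) and 0.36 ± 0.176 in K660N cells (adjusted p = 0.452). In parental cells it was not called, with 4.89 to 17 CPM (n = 5) under palbociclib and 21.2 to 35.1 CPM (n = 4) with FGF2, without overlap. That comparison called 1 gene higher and 0 lower among all genes.

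FIIN-3 on top of Palbo+FGF2 gave 12 lower and 0 higher calls in 18 tests of 35 possible (9.62% and 9.2% of all gene tests): SPRY4 in FGFR1, FGFR2_WT, M538I and N550K cells, SPRED2 in all 7 lines, and SPRY1 in K660N cells. N550K cells again had SPRY4 reads, with 2.54, 0.655, 4.69, 1.42, 0.91 and 0 CPM (-2.99 ± 0.393, adjusted p = 8.16e-07, edgeR, 8.21-fold). SPRY4 fell at least 51.6-fold in FGFR1 and at least 63.8-fold in M538I cells, which had 0 reads, and by a ratio of 94.1 in FGFR2_WT cells (95% counting interval 25.7 to 782). It was not tested in K660N, parental and GFP cells. K660N cells went from 98 SPRY4 reads (3.07 to 9.26 CPM) to 2, with 4 of 5 libraries at 0. Reads went from 18 to 0 in parental and from 20 to 4 in GFP cells.
SPRED2 changes ran from -0.72 ± 0.168 in N550K (adjusted p = 0.00207) to -2.29 ± 0.205 in M538I cells (adjusted p = 1.97e-10). SPRY1 in K660N cells went from 11, 9.2, 14.2, 19.1, 7.68 and 13.2 CPM to 7.11, 5.88, 6.31, 6.48 and 4.59 CPM, with no overlap (-0.94 ± 0.278, adjusted p = 0.0161).
FIIN-3 alone was given to all 8 lines in set 2; for the parental, GFP and receptor lines no untreated group of that set was analysed here, so their levels are given without a comparison. SPRY4 had 0 reads in FGFR1, FGFR2_WT and K660N cells, and at most 0.318 CPM in GFP, 0.663 in parental, 0.7 in M538I and 1.13 in N550K cells. Median SPRED2 levels ran from 8.1 CPM in K660N to 10.95 in parental cells over these 7 lines, whose ranges overlap.
With fulvestrant, palbociclib and FGF2 present, Tram was set against FIIN-3 in set 2. SPRED2 was lower with Tram in N550K cells (-1.26 ± 0.246, adjusted p = 0.000336, edgeR, 2.34-fold), with overlap, and in parental cells (-0.71 ± 0.254, adjusted p = 0.0435; adjusted p = 0.0784 without the filter). These are 2 lower and 0 higher calls in 14 tests of 35 possible, against 12.8% and 13.5% of all gene tests, which is no result about the members. SPRY4 in N550K cells had 6 reads with Tram and 30 with FIIN-3 (4.71-fold lower on pooled reads, not tested).

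Other genes of the pathway were followed in lists that were chosen with earlier results of these data known. The ERK output list held the phosphatases DUSP4 and DUSP6, the ETS factors ETV4 and ETV5, CCND1, EPHA2, EPHA4 and PHLDA1. With FGF2 against DMSO 27 of its 51 tests were higher and 2 lower (3.71% and 5.03% of all gene tests). Medians per line lay between 0.78 and 2.5 on the log2 scale, beside medians of all genes between -0.03 and 0.03. DUSP6, which dephosphorylates ERK, rose in 6 of 7 lines (1.52 to 4.1) and DUSP4 in 6 (0.83 to 2.56). With FIIN-3 added 33 of 49 were lower and 4 higher (10.5% and 10.2% of all gene tests). With Tram on Fulv+FGF2 38 of 50 were lower and 0 higher (4.89% and 4.19%). DUSP6 fell in 7 of 7 lines in both (-5.33 to -1.56 and -5.54 to -3.95).
The cascade list held 21 genes between receptor and ERK, such as the adaptors FRS2, GRB2 and GAB1, the RAS genes, BRAF, NF1 and the kinases MEK and ERK themselves. In each of the 7 lines 18 of the 21 were tested. Summed over lines, 17 tests were higher and 1 lower with FGF2 (3.71% and 5.03% of all gene tests), and 29 lower and 0 higher with FIIN-3 added (10.5% and 10.2%). With Tram on Fulv+FGF2 the cascade list had 6 higher and 0 lower calls (4.19% and 4.89% of all gene tests). The share of higher calls is near that of all genes and is not a result about the list. Unlike in the ERK output list, no gene of the cascade list was called lower there. With Tram against FIIN-3 there were 22 higher and 1 lower (12% and 11.5%). NF1, the partner of the SPREDs, rose in 3 lines with FGF2 and fell in 5 of 7 with FIIN-3 added, and CBL, the SPRY2 partner, fell in 5.

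As a description over group means, SPRY4 and SPRED2 had a Pearson correlation of 0.933 over the 64 groups of set 1 and 0.912 over the 48 groups of set 2, while SPRY1 and SPRY2 had 0.544 and 0.235. The points share lines and libraries' depth, and no p is given. Among 11035 genes with a mean count of at least 20, those most like SPRY4 in set 1 were MYEOV (0.947, and 0.904 in set 2), ETV4 (0.947 and 0.921) and ITGB6 (0.943 and 0.855). Those most like SPRED2 were DUSP4 (0.944 and 0.911), SPRY4 (0.933 and 0.912) and ITGB6 (0.925 and 0.866). SPRY2 was most like DUSP4 (0.86 and 0.673), SPRED1 like SEPT9 (0.895 and 0.715) and SPRY1 like TLE1 (0.808 and 0.692).
SPRY4-IT1, a noncoding RNA inside SPRY4, had reads in 86 libraries (at most 7 in any) beside 11093 SPRY4 reads in all. Since strand was not kept, reads from the 2 genes cannot be told apart where they overlap.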

How the data were processed

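RNA of T47D cells was measured by SMART-Seq2 in 647 libraries (376 in set 1, 271 in set 2), grouped by line, treatment and set from the titles and labels. Per the submitters' processing notes the authors aligned reads to hg19 with STAR; the sources used here do not give versions, counter or annotation. The deposited count table holds whole-number read counts for 54592 genes, and 0 rows name no gene. The second table deposited by the authors holds log2(TPM + 1) values, of which 87 columns were used and 560 were not. Members, lists and tests were chosen with earlier results of these data known.

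Each of 104 comparisons was fitted on its own libraries with edgeR 4.0.16 (R 4.3.3): TMM, the filterByExpr filter at a minimum count of 10, the quasi-likelihood test, and Benjamini-Hochberg adjustment over all genes tested in that fit, threshold 0.05. SE is the log2 fold change divided by the square root of F. Higher, lower, rose and fell refer to tests past the threshold. Folds on pooled reads divide summed counts scaled by summed totals; a group at 0 reads was set to a floor of 3 counts over the group. Counting intervals are at the 0.95 level, leave out the spread between libraries and treat each read as independent. Of nonzero member counts up to 20, 86.9% were even, so counts are not independent molecules and the intervals are too narrow. CPM is the count scaled to the total of its library, and levels are log2(CPM + 1).

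Named genes are the 5 members, up to 3 genes per list and comparison called in most lines, and per member the 3 genes with the highest correlation of group means. No 2 libraries held identical values. Single outlying libraries were sought in 303 sets of 1 gene and 1 group. Replicate numbers are accession order; pairs by title number were checked and not supported (20 of 98 comparisons had every pair correlation over 0.1). Alternatives were DESeq2 1.42.0, RLE size factors, no filter, 1 fit per line and set, a replicate block, a term for ranges of 96 title numbers, leaving out libraries, and limma 3.58.1 on log2 TPM for the lines against GFP, FGF2 against DMSO and the FGF2 responses against that of GFP. The fits were tested on simulated data. Promoter windows come from RefSeq, GRCh38.p14, a build other than that of the counts, and were not joined to them by position. Of the 5 members all matched.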

Additional observations from a re-analysis of the deposited data

Results flagged for a closer look

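Sets of 1 gene in 1 group were searched where the mean count was at least 10 per library. Of these, 17 held 1 library set off from the rest by Dixon's criterion. Chance alone reaches this in about 1 set in 20. The share found among all sets searched is near that level, so the libraries listed here are a description and their number is not a result. Levels here are log2(CPM + 1). For SPRY1 the low libraries were GFP with Fulv+FGF2+Tram replicate 6 (2.49), GFP with FIIN-3 in set 2 replicate 2 (1.12), N550K with Fulv+Palbo+FGF2+FIIN-3 replicate 6 (2.35) and the FGF3 line with Fulv+Palbo+Tram replicate 3 (1.76). For SPRY2 they were FGFR2_WT with Fulv+FGF2 replicate 5 (0.45) and M538I with FGF2 replicate 5 (0.33). For SPRY4 the high library was parental with Fulv+Palbo+FGF2 replicate 6 (2.87, the next at 1.49).

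For SPRED2 the low libraries were FGFR1 under DMSO replicate 3 (1.45) and N550K under fulvestrant replicate 3 (3.66), both among those with under 5% of counts in MT-RNR2. Other low ones were M538I under fulvestrant replicate 3 (3.87), N550K with Fulv+FGF2+Tram replicate 6 (2.45), FGFR2_WT with FIIN-3+FGF2 replicate 1 (2.48) and M538I with palbociclib replicate 4 (3.81). High ones were M538I with FGF2 replicate 3 (5.55), the FGF3 line with FIIN-3 in set 1 replicate 2 (4.61), FGFR2_WT with FIIN-3 in set 2 replicate 1 (4.38) and K660N with palbociclib replicate 3 (4.79).

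In 2 contrasts the effect on SPRY4 differed between lines by a test of the difference itself (edgeR, log2 scale): the FGF2 response of FGFR1 against GFP cells (4.75) and the effect of FIIN-3 on FGF2 in N550K against FGFR2_WT cells (6.78, a size that depends on the prior count).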

How the results depend on the processing

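No result changed sign under any alternative. Of the called member tests, 92 kept their call in every alternative run (SPRY4 39 of 40, SPRED2 49 of 58, SPRY1 1 of 5, SPRY2 1 of 2, SPRED1 2 of 3). Where SPRY4 passed the filter through its high group alone, with few or no reads in the other, it had to differ. The count of kept SPRY4 calls therefore does not measure robustness in those comparisons. RLE size factors moved no count of calls by over 1.5 times. Leaving out 1 library at a time, done for groups of 5 or fewer, changed no call. The replicate block (3 pairs of neighbouring title numbers) moved the FGF2 response against GFP from 1 higher call to 2 and Tram against FIIN-3 in set 1 from 1 lower to 2; it brought SPRY4 in N550K cells with FGF2 past the threshold (2.26, adjusted p = 0.0496) and changed no other call of a named test.

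Counts of member calls moved by over 1.5 times as follows; the causes were not tested. Lines against GFP (5 higher) gave 8 with the MT-RNR2-low libraries left out, 3 without shallow libraries and 2 with limma. The FGF2 response against GFP (1 higher) gave 3 without the filter, 3 with ranges of title numbers, 3 with DESeq2, 2 with the MT-RNR2-low libraries left out, 3 with limma and 4 in one fit over the line and set. FGF2 with fulvestrant (9 higher) gave 14 without the filter, 15 with DESeq2 and 14 in one fit. FIIN-3 on Fulv+FGF2 (12 lower) gave 19 in one fit, and Tram (13 lower) gave 24 with DESeq2. Tram against FIIN-3 in set 1 (1 lower, 0 higher) gave 2 lower without the filter, with ranges and with DESeq2 and 3 in one fit, and 1 higher without the filter and in one fit; in set 2 (2 lower) it gave 1 without the filter. N550K against FGFR2_WT (1 higher) gave 2 with ranges. N550K with FIIN-3 (5 higher, 3 lower) gave 3 higher with ranges, and 6 lower without the filter, 7 with DESeq2, 6 without the libraries that stand apart and 7 in one fit. One fit also gave 2 lower for FGF2 (from 0), 1 higher for FIIN-3+FGF2 (from 0) and 1 lower for Palbo+FGF2 (from 0).

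SPRY4 in N550K cells with FGF2 passed in 7 of 9 alternatives. SPRED2 there passed with DESeq2 (0.72, adjusted p = 0.0252) and in one fit (0.76, adjusted p = 0.0052), and SPRED2 in GFP cells with FGF2 missed with limma (1.05, adjusted p = 0.0885). limma was not run for comparisons outside the DMSO and FGF2 groups. Depth limits SPRY2 and SPRED1: with median counts of 2 and 1 in set 2, neither passed the filter in any comparison there.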

Other observations

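In set 2 the FGF3 line held the highest group mean of 4 of the 5 genes: SPRY1 (3.79 on the log2(CPM + 1) scale) and SPRED2 (5.62) with palbociclib, and SPRY2 (2.36) and SPRED1 (2.22) in the control group. The control group held 51 SPRY2 and 47 SPRED1 reads. Without its 1 MT-RNR2-low library the means were 2.04 for SPRY2 and 1.85 for SPRED1 (n = 5), still the highest of set 2. SPRY4 was highest in N550K cells with Palbo+FGF2 (4.04). SPRY1 was lowest in M538I cells with FIIN-3 (2.16) and SPRED2 in parental cells with Fulv+Palbo+FGF2+Tram (3.1). ESR1, the estrogen receptor gene, was lower with FGF2 than with DMSO in 4 of 7 lines (log2 -1.16 to -0.32, edgeR) and higher with FIIN-3+FGF2 than with FGF2 in 7 of 7 (0.59 to 1.62). It was chosen after its values were seen, and the other luminal markers did not all move with it. Over the 8 markers 3 of 55 tests were higher and 6 lower with FGF2 (3.71% and 5.03% of all gene tests). With FIIN-3+FGF2 17 of 56 were higher and 8 lower (10.2% and 10.5%). KRT18, a keratin, was higher in 2 lines and lower in 0 with FGF2, and lower in 4 and higher in 1 with FIIN-3+FGF2.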
